A study of Mus musculus with 8 samples.

Results

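The active zone is the patch of presynaptic membrane where synaptic vesicles dock, are made ready for fusion (primed) and release transmitter. A dense protein meshwork holds calcium channels and release sites together there: Bassoon and Piccolo form the large outer scaffold, the ELKS proteins (Erc genes), RIM and RIM-binding proteins tether vesicles to calcium channels, and Munc13 proteins (Unc13 genes) prime vesicles. In the hippocampus these proteins set how reliably excitatory and inhibitory terminals release transmitter. The 10 genes described here, Bsn, Pclo, Rims1, Rims2, Unc13a, Unc13b, Erc1, Erc2, Rimbp2 and Cask, were chosen by symbol for these roles, and all 10 were found among the 20802 genes of the deposited table.

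The samples were hippocampal RNA of 8 male C57BL/6 mice at PND28, with 4 mice per group. The Anesthesia mice had been given intraperitoneal ketamine, an NMDA receptor blocker, at 35 mg per kg on 5 consecutive days from PND16, and the hippocampus was taken 1 week after the last injection. The Control group received normal saline in the same way according to the deposited protocol, while their sample titles say untreated. The comparison asks whether early repeated anesthesia left a lasting mark on hippocampal gene expression.

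Values are counts normalized by the authors, with a total of 18702634 to 19231119 per mouse, and are not numbers of reads. From the spacing of low values, each library held approximately 15400000 to 22200000 reads in genes. Genes were compared with limma on log2(value + 1), and a fold change below is a difference on that scale, on which a low gene appears to differ by less than it does. Every marker of CA1, CA3 and dentate neurons, interneurons, astrocytes, oligodendrocytes and microglia was detected in every library, and the summed level of each of these lists overlapped between the groups. For interneurons the overlap came only through Anesthesia replicate 4 (9403, Control 9241 to 9747). For astrocytes it came only through Anesthesia replicate 2 (24263, Control 23421 to 24218). The other Anesthesia mice lay below every Control mouse in these sums. Higher in the Anesthesia group were 5 of 5 microglia, 4 of 6 CA1, 2 of 7 interneuron and 1 of 5 dentate markers. The same held for 1 of 5 astrocyte, 0 of 5 oligodendrocyte and 0 of 4 CA3 markers, against 49.2% of all genes tested. None of these markers had an adjusted p under 0.05. An unadjusted p under 0.05 was found for 1 of 7 interneuron markers and none of the others, against 8.02% of all genes tested. The 7 choroid plexus markers summed to between 26130 and 65583 normalized counts in 4 libraries (Anesthesia replicate 1 and Control replicates 2, 3 and 4) and to between 390.8 and 3177 in the other 4, of which 3 were Anesthesia libraries. The choroid plexus lies in the ventricles beside the hippocampus, and its markers moved in part with the groups. In such bulk samples fewer cells of a type and less RNA per cell cannot be told apart.

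Of the 10 active zone genes, 9 had higher mean log2 levels in the Anesthesia group, as did 49.2% of all genes tested, and 0 had an adjusted p under 0.05. The median log2 fold change was 0.19, against -0.0036 over the 18865 genes tested. The largest differences were those of Bsn (log2 fold change 0.44), Rims1 (0.32), Rimbp2 (0.28) and Unc13a (0.24), while Erc2 (-0.02) and Cask (0.03) lay near zero. Across all genes tested 0% had an adjusted p under 0.05, and the smallest adjusted p was 0.381. In simulated data the same fit called only 12.2% of genes given a weak shift, so these zeros do not show a lack of change. That shift was larger than the fold change of each of the 10 genes except Bsn, and smaller shifts were not simulated. At an unadjusted p under 0.05 there were 6 of the 10 genes, all higher in the Anesthesia group, where 8.02% of all tested genes passed that threshold, 4.75% higher and 3.27% lower. In 5 of the 10 the lowest Anesthesia value exceeded the highest Control value, as in 2.81% of all genes tested. A further 2.23% had every Anesthesia mouse below every Control mouse, 5.04% in both directions. These 10 genes were chosen with earlier results of these data known, so the counts describe them and no test over the list was made.

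**Figure D1:**
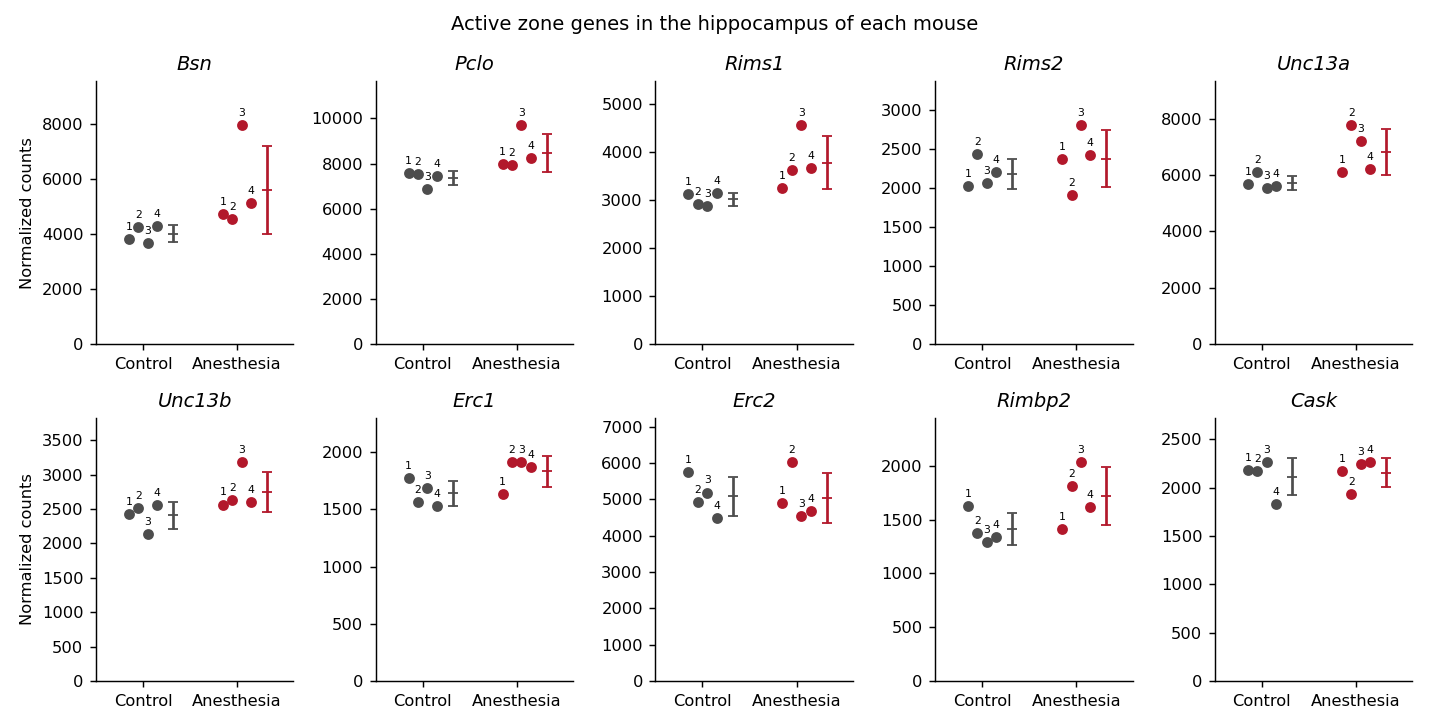
Normalized counts of the 10 active zone genes (vertical axes, starting at 0) in the 4 Control (grey) and 4 Anesthesia (red) mice, each point numbered by its replicate, with the mean and SD of the group at the right of its points. Bsn, Pclo, Rims1, Unc13a and Unc13b have groups that do not overlap, and Anesthesia replicate 3 is the highest Anesthesia mouse for 6 of the 10 genes.

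The promoters of the genes whose groups did not overlap are shown to let the start of each gene be seen beside its values, with Erc2, whose groups overlapped, for contrast. RefSeq on GRCm38.p6 gave a start for 8 of the 10 genes, not matched for Rims2 and Cask. Each sequence is the 250 bases before that start, 5′ to 3′ on the strand of the gene. In Bsn the capitals mark GCGCATGC on either strand, the core of the motif of the factor NRF1, with overlapping matches joined to 1 site, and in the others they mark the GC box GGGCGG on either strand. The windows are chr9:108190384-108190633 (minus strand) for Bsn, chr5:14514668-14514917 (plus) for Pclo, chr1:22806159-22806408 (minus) for Rims1, chr8:71671758-71672007 (minus) for Unc13a, chr4:43058703-43058952 (plus) for Unc13b and chr14:27622157-27622406 (plus) for Erc2.
Bsn: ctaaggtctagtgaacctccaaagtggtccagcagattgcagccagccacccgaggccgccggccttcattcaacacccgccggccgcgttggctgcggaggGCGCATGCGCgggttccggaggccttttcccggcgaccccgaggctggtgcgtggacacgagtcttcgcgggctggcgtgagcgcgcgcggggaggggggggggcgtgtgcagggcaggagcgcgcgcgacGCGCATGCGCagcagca
Pclo: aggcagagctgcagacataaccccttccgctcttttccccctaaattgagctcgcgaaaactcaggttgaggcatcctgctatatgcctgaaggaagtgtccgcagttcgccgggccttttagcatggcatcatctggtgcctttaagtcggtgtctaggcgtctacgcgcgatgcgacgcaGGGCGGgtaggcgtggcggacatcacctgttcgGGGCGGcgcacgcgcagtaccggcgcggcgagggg
Rims1: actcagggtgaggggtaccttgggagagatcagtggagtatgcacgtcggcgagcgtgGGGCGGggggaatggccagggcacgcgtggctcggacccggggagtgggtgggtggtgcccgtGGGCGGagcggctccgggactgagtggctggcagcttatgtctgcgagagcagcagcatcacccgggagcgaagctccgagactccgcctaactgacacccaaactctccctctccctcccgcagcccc
Unc13a: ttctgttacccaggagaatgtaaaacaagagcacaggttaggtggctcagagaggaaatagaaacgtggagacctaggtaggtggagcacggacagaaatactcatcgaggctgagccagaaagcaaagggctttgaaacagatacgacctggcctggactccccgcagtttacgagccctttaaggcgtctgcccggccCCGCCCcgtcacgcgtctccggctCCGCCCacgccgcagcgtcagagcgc
Unc13b: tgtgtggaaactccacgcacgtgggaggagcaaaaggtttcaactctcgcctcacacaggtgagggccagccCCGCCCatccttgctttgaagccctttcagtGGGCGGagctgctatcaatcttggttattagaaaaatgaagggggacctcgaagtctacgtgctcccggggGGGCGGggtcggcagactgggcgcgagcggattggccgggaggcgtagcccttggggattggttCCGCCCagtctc
Erc2: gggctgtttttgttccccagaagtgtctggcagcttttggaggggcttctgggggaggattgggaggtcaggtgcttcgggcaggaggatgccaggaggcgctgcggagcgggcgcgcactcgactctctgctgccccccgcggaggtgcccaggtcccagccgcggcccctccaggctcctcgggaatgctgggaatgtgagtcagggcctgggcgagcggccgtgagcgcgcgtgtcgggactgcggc
The Bsn window held the NRF1 core at 2 places, starting 148 and 17 bases before the gene start. Of 32851 mouse promoter windows of the same length, 2.26% held it at least once and 0.167% (55 windows) at 2 or more places. No other of the 8 windows held it. The GC box was found in 5 of the 8 windows, those of Pclo, Rims1, Unc13a, Unc13b and Erc1, and in 32.7% of all windows. The other motifs searched on both strands, the cyclic AMP response element TGACGTCA (1.55% of all windows) and the TATA box TATAAA (12.4%), were in none of the 8. No motif overlapped another in the printed windows. A match describes the letters of the window and not a bound site.

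The outer scaffold genes are described first. Bsn encodes Bassoon, a very large scaffold protein that organizes the active zone and guides vesicles to it (ENSMUSG00000032589, chr9:108096022-108190384 on GRCm38). Anesthesia replicates 1 to 4 had 4705, 4535, 7950 and 5125 normalized counts, and Control replicates 1 to 4 had 3796, 4243, 3685 and 4282. Every Anesthesia mouse was above every Control mouse, and Anesthesia replicate 3 stood far above the rest. The mean was 5579 ± 1601 against 4002 ± 305.1 (SD, n = 4 each), 1.39-fold higher in the Anesthesia group. On the log2 scale the difference was 0.44 (limma, standard error 0.15, adjusted p = 0.62). Without Anesthesia replicate 3 it was 0.26 (limma, standard error 0.07, adjusted p = 0.815). After correction for GC content and transcript length it was 0.30 (limma, standard error 0.13, adjusted p = 0.738).

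Pclo encodes Piccolo, the second giant scaffold of the active zone and a relative of Bassoon (ENSMUSG00000061601, chr5:14514918-14863459). The Anesthesia mice had 7985, 7917, 9709 and 8263 normalized counts and the Control mice 7570, 7555, 6890 and 7431, in replicate order. The groups did not overlap, and Anesthesia replicate 3 was again the highest. The mean was 8468 ± 840.6 against 7361 ± 320.5 (SD, n = 4 each), 1.15-fold higher, a log2 difference of 0.20 (limma, standard error 0.07, adjusted p = 0.62). Without Anesthesia replicate 3 the log2 fold change was 0.13, and it was 0.12 when GC content and transcript length were corrected for within libraries.

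Among the genes that tether vesicles and calcium channels, Rims1 had the smallest p of the 10. Rims1 encodes RIM, which binds Rab3 on vesicles, Munc13 and calcium channels (ENSMUSG00000041670, chr1:22286251-22805994). The Anesthesia mice had 3254, 3639, 4569 and 3675 normalized counts, and the Control mice 3123, 2926, 2889 and 3142. The groups did not overlap, although Anesthesia replicate 1 lay close to the highest Control mouse. The mean was 3784 ± 556.9 against 3020 ± 131.1 (SD, n = 4 each), 1.25-fold higher, and the log2 fold change was 0.32 (standard error 0.09, unadjusted p = 0.00615, adjusted p = 0.593 from limma). By unadjusted p it ranked 193 of 18865. Leaving out each mouse in turn gave 0.22 to 0.38, and correction for GC content and transcript length gave 0.29.

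Rims2, which encodes the second large RIM protein (ENSMUSG00000037386, chr15:39198261-39684372), had 2375, 1907, 2811 and 2427 normalized counts in the Anesthesia mice and 2025, 2444, 2062 and 2210 in the Control mice. The groups overlapped widely, with Anesthesia replicate 2 the lowest and Anesthesia replicate 3 the highest of all 8 mice. Its log2 fold change was 0.11 (standard error 0.11, 95% interval -0.13 to 0.36, adjusted p = 0.782 from limma). It was 0.03 without Anesthesia replicate 3 and 0.22 without Anesthesia replicate 2.

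Rimbp2 encodes a RIM-binding protein that links RIM to calcium channels (ENSMUSG00000029420, chr5:128757791-128953486). It had 1411, 1811, 2040 and 1616 normalized counts in the Anesthesia mice and 1631, 1378, 1294 and 1341 in the Control mice. The groups overlapped only through Control replicate 1, which lay above Anesthesia replicates 1 and 4. The mean was 1719 ± 268.7 against 1411 ± 150.9 (SD, n = 4 each), 1.22-fold higher, a log2 difference of 0.28 (limma, standard error 0.11, adjusted p = 0.62). With the mean log2 level of the choroid plexus markers as a covariate it was 0.14.

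Erc1 and Erc2 encode the ELKS proteins, coiled-coil scaffolds that bind RIM, Bassoon and Piccolo. Erc1 (ENSMUSG00000030172, chr6:119570796-119848167) had 1630, 1917, 1915 and 1869 normalized counts in the Anesthesia mice and 1771, 1565, 1685 and 1533 in the Control mice. Of the 4 Anesthesia mice, 3 were above the highest Control mouse and Anesthesia replicate 1 lay within the Control range. Its log2 fold change was 0.16 (limma, standard error 0.07, adjusted p = 0.626), and it was 0.10 after correction for GC content and transcript length and 0.09 with the choroid plexus covariate. An antisense gene, Gm44317, covers 11.8% of the exonic bases of Erc1, but it had at most 29.58 normalized counts in any mouse.

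Erc2, the ELKS gene that is largely restricted to brain (ENSMUSG00000040640, chr14:27622428-28478537), had 4896, 6043, 4531 and 4691 normalized counts in the Anesthesia mice and 5755, 4925, 5191 and 4476 in the Control mice. Both groups spanned nearly the same range, and Anesthesia replicate 3, the highest mouse for Bsn, was the lowest Anesthesia mouse here. The mean was 5040 ± 684.9 against 5087 ± 534.2 (SD, n = 4 each), and the log2 fold change of -0.02 had a 95% interval of -0.24 to 0.21 (adjusted p = 0.971 from limma). Its sign turned without Anesthesia replicate 3 (0.03), without Anesthesia replicate 4 (0.02) and without Control replicate 1 (0.05).

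Both priming genes had groups that did not overlap, by narrow margins. Unc13a encodes the main Munc13 protein of hippocampal excitatory terminals (ENSMUSG00000034799, chr8:71624417-71671757). It had 6100, 7779, 7204 and 6204 normalized counts in the Anesthesia mice and 5685, 6099, 5546 and 5601 in the Control mice. Anesthesia replicate 1 and Control replicate 2 were almost equal, whereas Anesthesia replicates 2 and 3 stood well above all Control mice. The mean was 6822 ± 809.4 against 5733 ± 250.8 (SD, n = 4 each), 1.19-fold higher, a log2 difference of 0.24 (limma, standard error 0.08, adjusted p = 0.62), and of 0.16 after correction for GC content and transcript length. Unc13a shares 3.92% of its exonic bases with Colgalt1 on the other strand, which had 708.8 to 880 normalized counts, and the sources used here do not state that strand was used in counting.

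Unc13b encodes a second Munc13 protein that primes vesicles at a subset of hippocampal terminals (ENSMUSG00000028456, chr4:43058953-43264871). It had 2564, 2627, 3188 and 2604 normalized counts in the Anesthesia mice and 2425, 2511, 2132 and 2552 in the Control mice. Anesthesia replicate 3 lay far above the other Anesthesia mice, and these lay only just above the Control mice. Its log2 fold change was 0.19 (limma, standard error 0.08, adjusted p = 0.622), 0.11 without Anesthesia replicate 3 and 0.12 after correction for GC content and transcript length.

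Cask encodes a membrane-associated guanylate kinase that binds neurexins, Veli (Lin7) proteins and Mint proteins at the presynaptic membrane (ENSMUSG00000031012, chrX:13517080-13851367). It had 2168, 1938, 2246 and 2269 normalized counts in the Anesthesia mice and 2185, 2176, 2267 and 1831 in the Control mice. The groups overlapped almost fully. Its log2 fold change was 0.03 (95% interval -0.15 to 0.21, adjusted p = 0.932 from limma), and it was -0.01 after correction for GC content and transcript length and -0.04 without Control replicate 4.

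**Figure D2:**
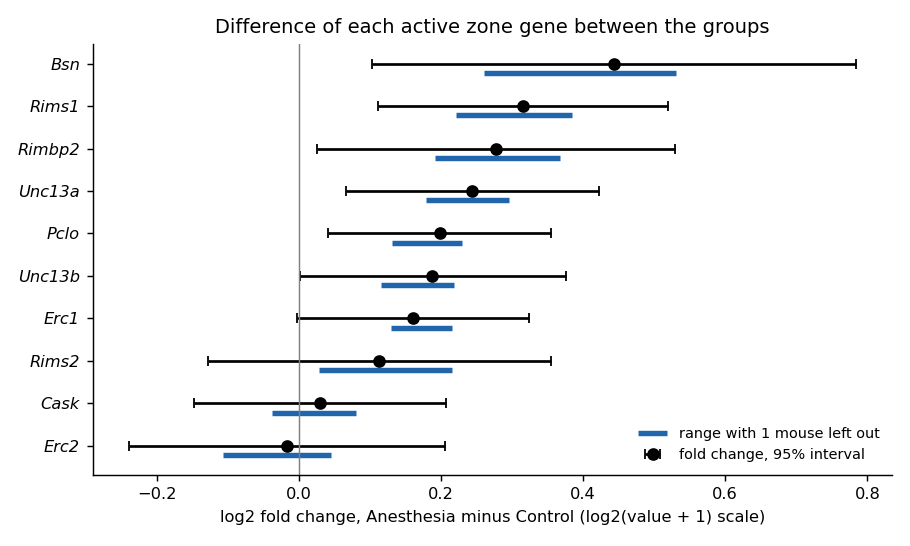
Log2 fold change of each active zone gene, Anesthesia minus Control, from limma on log2(value + 1). Points with black bars are the fold change and its 95% interval, and blue bars are the range when each of the 8 mice is left out in turn; Bsn has the widest interval (0.10 to 0.78), and Erc2 and Cask lie near zero.

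The differences were not shared evenly by the Anesthesia mice. Relative to the Control mean of each gene, the median of the 10 genes on the log2 scale was 0.09, 0.21, 0.38 and 0.16 in Anesthesia replicates 1 to 4 and 0.05, 0.04, -0.07 and -0.01 in Control replicates 1 to 4. In this median all Anesthesia mice thus lay above all Control mice, with replicate 3 the highest and replicate 1 only just above Control replicate 1. The same median was not computed for other genes. Anesthesia replicate 3 was the highest Anesthesia mouse for Bsn, Pclo, Rims1, Rims2, Unc13b and Rimbp2, and Control replicate 3 was the lowest Control mouse for 6 genes. The SD of the log2 levels was larger in the Anesthesia than in the Control group for 9 of the 10 genes, with Bsn at 0.37 against 0.11 and Rims1 at 0.21 against 0.06, and Cask at 0.10 against 0.14. The share of all genes with a larger SD in the Anesthesia group was not computed. The larger spread is therefore not read as a trait of the 10.

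The choroid plexus markers ran alongside part of this pattern. All 7 markers had a lower mean log2 level in the Anesthesia group, 0 of 7 had an unadjusted p under 0.05, and their sum was lowest in Anesthesia replicate 3 (390.8 normalized counts) and highest in Control replicate 3 (65583). Among the 4 libraries with a high sum, Anesthesia replicate 1 was above the mean of the 3 Control mice by 0.21 (log2) for Bsn. For Pclo and Rims1 this was 0.13, for Unc13a 0.09, for Erc1 0.03 and for Erc2 0.01. How many of all genes were higher in this split was not computed. Among the 4 with a low sum, the 3 Anesthesia mice averaged 0.59 above Control replicate 1 for Bsn, 0.34 for Rims1, 0.31 for Unc13a and 0.18 for Pclo, and 0.19 below it for Erc2. With 1 mouse on one side these differences have no test. With the markers as a covariate, Bsn had a log2 fold change of 0.38 and Rims1 of 0.24 (adjusted p = 0.95 for both from limma), and 3 of the 10 genes had an unadjusted p under 0.05, all higher, against 2.88% of all genes. The part of the choroid plexus markers in these differences was not tested beyond that.

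**Figure D3:**
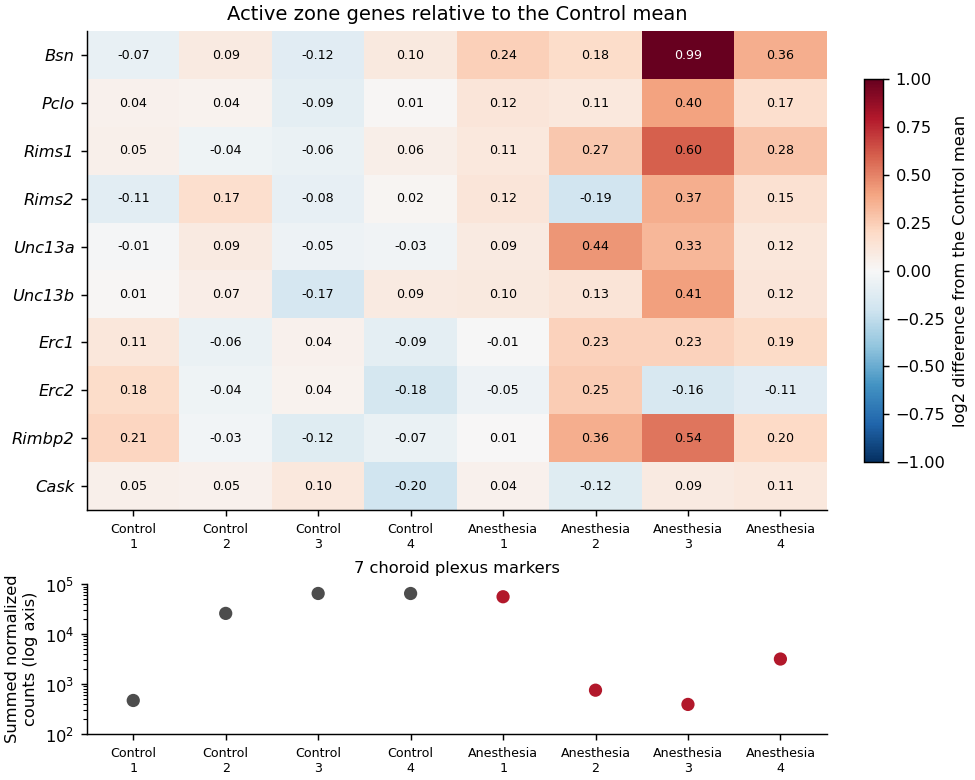
Upper panel, log2 level of each active zone gene in each mouse relative to the Control mean (red higher, blue lower, value printed in each cell). Lower panel, summed normalized counts of 7 choroid plexus markers in the same mice on a log axis; Anesthesia replicate 3 has the highest Bsn value (0.99) and the lowest marker sum (390.8).

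Related genes of a pair were compared inside each library, where the scaling of libraries to each other drops out. There was a pair for Bassoon and Piccolo, the RIMs, the Munc13s and the ELKS proteins, 4 comparisons in all. The Bsn to Pclo ratio was 0.589, 0.573, 0.819 and 0.62 in the Anesthesia mice and 0.501, 0.562, 0.535 and 0.576 in the Control mice, overlapping only between Anesthesia replicate 2 and Control replicate 4. The log2 ratio differed by 0.25 (two-sided exact permutation test, p = 0.0571, adjusted over the 4 pairs p = 0.229), and by 0.13 without Anesthesia replicate 3 (exact permutation p = 0.114). The Rims1 to Rims2 log2 ratio was 0.67 ± 0.20 against 0.47 ± 0.15 (SD, n = 4 each, exact permutation p = 0.2, adjusted p = 0.267). The Erc1 to Erc2 log2 ratio was -1.45 ± 0.20 against -1.63 ± 0.07 (SD, n = 4 each, exact permutation p = 0.2, adjusted p = 0.267), and the Unc13a to Unc13b log2 ratio was 1.31 ± 0.17 against 1.26 ± 0.10 (SD, n = 4 each, exact permutation p = 0.657, adjusted p = 0.657). The difference was 0.12 without Anesthesia replicate 2 and 0.13 without Control replicate 2 for the RIMs, and 0.11 without Anesthesia replicate 3 for the ELKS genes. None of the 4 ratios passed the threshold, and 4 mice against 4 cannot give a p below 0.0286 before adjustment. After adjustment over the 4 pairs, a ratio at that floor would pass only if most of the other ratios reached it too. The test could therefore hardly call a ratio on its own, and no lack of difference is concluded from it. The ratios compare genes of unequal length and so are read only between mice.

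Per kilobase of the longest annotated transcript, the order of the mean levels over the 8 mice was Erc2 (812.4 normalized counts per kb), Unc13a (612.1), Rims1 (527.8), Rims2 (475.6), Pclo (394.1), Bsn (300.5), Cask (255.2), Rimbp2 (224.7), Erc1 (198.1) and Unc13b (174.6). The ranges of every pair of neighbors in this order overlapped over the 8 mice. Within single mice, Erc2 was above Unc13a, Rims2 above Pclo and Erc1 above Unc13b in 8 of 8, and the other neighbors kept their order in 6 or 7 of 8. The order was the same in both groups except that Bsn was above Cask in the Anesthesia group (350.0 against 257.6 per kb) and just below it in the Control group (251.1 against 252.8). Erc2 ranged from 718.2 to 969.5 per kb and Erc1 from 175 to 218.8, and these did not overlap. Likewise Unc13a (540.8 to 758.6) was above Unc13b (144.5 to 216.1) in every mouse. With all exonic bases of a gene as its length, Rims2 moved from the fourth to the seventh place and Unc13b and Erc1 changed places. Erc2, Unc13a and Rims1 stayed the highest on the mean, with Erc2 above Unc13a in 6 of 8 mice. Which transcripts the hippocampus uses was not resolved here.

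The 10 genes share long transcripts, which the choice by symbol did not use. Their longest transcripts ran from 4800 bases in Rims2 to 20084 in Pclo, with a median of 8563, against a median of 3102 over all tested genes. Their median GC content, 48.1%, was close to that of all tested genes, 48.4%. Single genes ranged from 44.8% in Unc13b to 59.8% in Bsn, with Unc13a at 55.1% and Rimbp2 at 53.5%. Transcript length itself went with the fold change across all genes. The median log2 fold change was -0.018 in genes under 2000 bases, 0.039 at 6000 to 8000 bases, 0.053 at 8000 to 12000 bases and 0.042 above 12000 bases, the class of Bsn, Pclo and Unc13b, and 46.3%, 61%, 66.8% and 64.4% of the genes in these classes were higher in the Anesthesia group. Over the 4046 genes within the length range of the 10, the median was 0.029, 58.2% were higher and 8.87% were higher with an unadjusted p under 0.05. With both properties corrected for within libraries, the 10 genes had a median of 0.12 and 8 of them were higher, as were 46.8% of all genes in that fit. Bsn and Rims1 were the 2 with an unadjusted p under 0.05, both higher, where 3.61% of all genes were higher at that threshold. What transcript length or GC content contributes to each difference was not tested further.

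**Figure D4:**
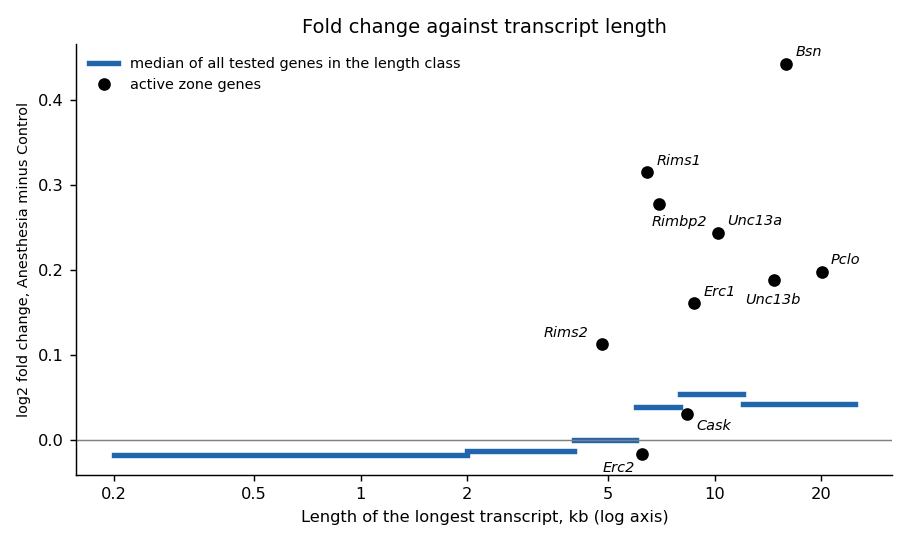
Log2 fold change (Anesthesia minus Control) against the length of the longest transcript on a log axis. Black points are the 10 active zone genes and blue lines the median of all tested genes in 6 length classes, the last of which is open at its upper end; 8 of the 10 points lie well above the line of their class, while Cask and Erc2 lie below it.

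The partners of these proteins were counted on 3 further lists. Of 21 active zone partners, 18 had higher mean log2 levels in the Anesthesia group and the median difference was 0.13 (log2), 6 had an unadjusted p under 0.05 (all higher), and 0 had an adjusted p under 0.05. Over all genes tested these shares were 49.2% higher, 4.75% higher at an unadjusted p under 0.05, and 0%. The highest were Ptprf, a receptor phosphatase of the presynaptic membrane (log2 fold change 0.44, standard error 0.16), Cacna1a, the pore subunit of P/Q-type calcium channels (0.43, standard error 0.13), and Rims4, a short RIM (0.35, standard error 0.19). Cacna1a had 1700, 1992, 2745 and 2021 normalized counts in the Anesthesia mice and 1636, 1635, 1440 and 1463 in the Control mice, so its groups did not overlap (adjusted p = 0.576 from limma). Anesthesia replicate 3 was once more the highest mouse. The lowest were Lin7c (-0.16), Ppfia1 (-0.15) and Ppfia2 (-0.065), with limma adjusted p-values between 0.694 and 0.921.

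Singled out after their values were seen, the liprins Ppfia3 and Ppfia4, which bind RIM and ELKS proteins, had the smallest p of that list. Ppfia3 had 1841, 1891, 2061 and 1874 normalized counts in the Anesthesia mice and 1577, 1601, 1562 and 1626 in the Control mice, a log2 fold change of 0.27 (limma, standard error 0.06, adjusted p = 0.565). Ppfia4 averaged 1287 ± 87.2 in the Anesthesia and 1075 ± 13.5 in the Control mice (normalized counts, SD, n = 4 each), a log2 difference of 0.26 (limma, standard error 0.06, adjusted p = 0.565). In both liprins the groups were clearly separate, whereas the liprins Ppfia1 and Ppfia2 were among the lowest of the list.

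Of 20 genes of the SNARE and priming machinery, which carries out fusion itself, 14 were higher in the Anesthesia group, the median log2 fold change was 0.069, and 0 had an unadjusted p under 0.05. Doc2a, a calcium sensor of spontaneous release, had 0.41 (standard error 0.43), and the syntaxin Stx1a had 0.37 (standard error 0.22). The lowest were Cadps2 (-0.16), Nsf (-0.082) and Doc2b (-0.051). Of 18 synaptic vesicle genes, 14 were higher, the median was 0.068, and Slc17a7 and Syngr3, named here after their values were seen, had an unadjusted p under 0.05. The highest were Syn1 (0.23), Syn3 (0.21) and Sv2c (0.18), and the lowest Rab3a (-0.041), Slc32a1 (-0.034) and Sv2b (-0.027). Over all genes tested 49.2% were higher, and 4.75% were higher with an unadjusted p under 0.05. No gene of these lists had an adjusted p under 0.05, and whether the lists differ from each other was not tested.

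**Figure D5:**
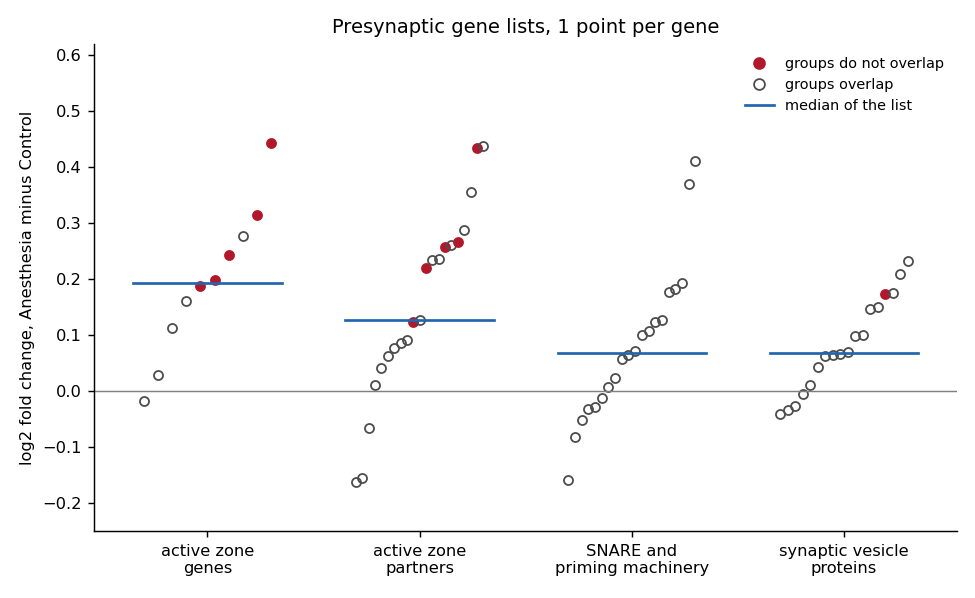
Log2 fold change (Anesthesia minus Control) of every gene of 4 presynaptic lists, 1 point per gene sorted within its list, with blue lines at the medians. Filled red points are genes whose groups do not overlap: 5 of the 10 active zone genes, 5 of 21 partners, 0 of 20 SNARE and priming genes and 1 of 18 vesicle genes, all higher, as were 2.81% of all genes tested.

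The genes whose course over the 8 mice was most like that of each active zone gene were found by the root mean square difference between log2 values centered on the gene mean, over 12248 other genes with a mean of at least 100. For Bsn they included Phf24 (0.064) and Wnk2 (0.077), where the median over all compared genes was 0.362. For Rims1 they were Gm42972 (0.04), Pip5k1c (0.041) and Brsk1 (0.046). Pclo and Unc13b had the same nearest 3 genes, Rab4a, Grid1 and Atxn7l3, at 0.028 to 0.036, and lay 0.045 from each other, the closest pair among the 10. Bsn lay 0.154 from Rims1, 0.197 from Pclo and 0.418 from Erc2. The median over all compared genes was 0.253 for Rims1, 0.197 for Pclo, 0.207 for Unc13b and 0.192 for Erc2. Seen from Pclo, Bsn was thus as far away as the median gene. Erc2 had Nck2 (0.037), Lrfn2 (0.042) and Ythdc2 (0.044) as its nearest.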

How the data were processed

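The labels and the paper's methods state that the authors quantified hippocampal RNA-seq of 8 mice with Salmon 1.1.0 (GRCm38, GC bias option), used tximport for gene sums and scaled them with DESeq2 1.30.1. The deposited values are therefore normalized signal. Of the low values, 45.9% to 68.3% fell within 0.1 of whole reads, and log2 values were fitted here in place of counts. The authors' own count model in DESeq2 called genes at an adjusted p under 0.05 between the same groups. The limma fit here called 0. Columns were assigned to mice by group letter and number. The library kit is stranded in the methods and another TruSeq kit in the labels.

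Values were tested as log2(value + 1) in limma 3.58.1 (R 4.3.3) with its trend option. The 18865 genes tested had a mean of 10 or more (1937 were lower). The fit was first checked on simulated data, where genes were given a strong or a weak shift and noise was drawn for each gene on its own. It called 61.8% of the genes with the strong shift but only 12.2% of those with the weak shift. Weak shifts were thus mostly missed, and a count of 0 called genes is not read as no change. Benjamini-Hochberg adjustment covered all genes, with 0.05 as threshold. GENCODE M21 gave symbols, positions, lengths and GC content for 20784 of 20802 identifiers. Ratios were tested by exact permutation (scipy 1.17.1). A limma p-value sets the difference of a gene against the spread between these mice, with variances drawn toward those of all genes. A ratio p-value places the difference among all ways of assigning the mice to the groups. Members, lists, tests and alternatives were chosen with earlier results of these data known. The 10 genes are named, with the 3 highest and 3 lowest of each further list and, for some of the 10, the 3 nearest genes by pattern. Some genes that meet these rules are not reported here. Pairs of libraries differed by an SD of 0.45 to 0.672 in log2 ratio, so none was counted again.

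Alternatives were a pseudocount of 0.1, other filters (none, or 10 in every library), upper quartile or column total scaling, voom, a replicate block, loess correction for GC content and transcript length (alone or with that block), a choroid plexus covariate, a threshold of 0.10 and leaving out each mouse.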

Additional observations from a re-analysis of the deposited data

Results flagged for a closer look

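Of 64 groups of 4 mice examined for the active zone genes, their ratios and the named partner genes, 2 held a single mouse set well apart from the 3 beside it, where chance gives about 3.2. Unc13b had 3188 normalized counts in Anesthesia replicate 3 against 2564 to 2627 in the other Anesthesia mice (gap over range 0.90). Erc1 had 1630 normalized counts in Anesthesia replicate 1 against 1869 to 1917 in the others (gap over range 0.834). In the same libraries the 7 choroid plexus markers summed to 390.8 in Anesthesia replicate 3, the lowest of all 8, and to 56364 in Anesthesia replicate 1, the highest of the Anesthesia group.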

How the results depend on the processing

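None of the 10 active zone genes had an adjusted p under 0.05 in limma under any alternative or threshold tried, and fold changes kept their direction in 174 of 180 refits. The exceptions were Erc2 without Anesthesia replicate 3 (0.031), Anesthesia replicate 4 (0.015) or Control replicate 1 (0.045; range over all mice left out -0.107 to 0.045) and Cask without Control replicate 4 (-0.038; range -0.038 to 0.08) and after correction for GC content and transcript length, with or without a block (-0.012). A filter or the replicate block cannot change the fold change of a gene here, and all refits reuse the same 8 mice. The 174 are therefore not independent of each other. The median of the 10, 0.193, ranged from 0.135 (without Anesthesia replicate 3) to 0.222 with each mouse left out. It was 0.088 in the libraries rich in choroid plexus markers only and 0.194 in the poor ones, a split chosen after the data were seen. The 6 genes with an unadjusted p under 0.05, also recounted after the data were seen, became 2 after the correction for GC content and length, 1 with the block as well, 3 with the choroid plexus covariate, and 3 (without Control replicate 3) to 7 with each mouse left out. Higher at that threshold were 4.75% of all genes at first, 3.61% after the correction and 2.65% with the block as well. The share was 2.88% with the choroid plexus covariate, 3.54% without Control replicate 3 and 5.63% without Anesthesia replicate 1. Over all genes the number at an adjusted p under 0.05 was 0, and 0 to 2 with each mouse left out (2 without Control replicate 1). At an unadjusted p under 0.05 it was 1513, and 900 with the choroid plexus covariate or 911 with the GC content and length correction and the block. The cause of these shifts was not tested.

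Replicate numbers were not treated as a pairing here. Deviations from the group means correlated at -0.242, -0.109, -0.182 and 0.019 between mice sharing a number. These values cannot exclude a shared origin of such mice. A fit blocked on the number called 0 genes, and 4 of the 10 had an unadjusted p under 0.05, as did 5.75% of all genes (3.62% higher). The log2 ratio of Unc13a to Unc13b turned to -0.029 without Anesthesia replicate 2 (range -0.029 to 0.101), while the other ratios kept their direction, from 0.129 to 0.301 for Bsn to Pclo, 0.115 to 0.274 for the RIMs and 0.107 to 0.245 for the ELKS genes.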
